A study of Mus musculus with 8 samples.

Results

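Fabp1 and Fabp2 encode the liver-type and the intestinal-type fatty acid binding protein, and the H3K27ac peaks at 2 windows that carry these names are described here in mouse small intestinal crypts. H3K27ac is an acetylated form of histone H3 that marks active promoters and enhancers. Every peak of the 4 deposited H3K27ac lists that overlapped chromosome 6 from 71125000 to 71180000 (Fabp1) or chromosome 3 from 122660000 to 122730000 (Fabp2) was taken, in mm9 positions counted from 1. These windows were chosen by peak positions and scores in the same lists, so presence, cover and score of peaks in them are given as a description with no test. The rule found 22 of the 117035 peaks of the series, 20 in the chromosome 6 window and 2 in the chromosome 3 window.

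The libraries were made by chromatin immunoprecipitation with sequencing from crypts of mice that had food (fed 1 and fed 4) or were deprived of it for 24 h with water at hand (fasted 2 and fasted 5). Each library pooled crypts of 4 animals, males and females of 6 to 12 weeks. The protocols name Lgr5EGFP-IRES-CreERT2/+ mice, in which the stem cell gene Lgr5 drives EGFP and an inducible Cre, and C57BL/6J mice, and do not say which strain went into which library. Crypts of both groups were isolated in 100 nM trichostatin A, which blocks histone deacetylases. The lists held 15504 to 37974 peaks each and covered 21.9 Mb in fed 4, 48.8 Mb in fed 1, 99.2 Mb in fasted 2 and 109.1 Mb in fasted 5, a fasted-to-fed ratio of 2.95. Depth is unknown, because the lists hold no read counts, and its part in these lengths was not tested. In a pool of cells, a mark in fewer cells and a weaker mark in each cell cannot be told apart. Peaks at crypt and villus marker genes were not analysed here.

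Fatty acid binding proteins are small cytosolic carriers that bind long-chain fatty acids and move them between membranes, organelles and the nucleus. Both genes are known as strongly expressed genes of absorptive enterocytes, the cells that take up dietary fat, and their RNA is higher on the villus than in the crypt. Fabp1 is also a well-known target of PPAR alpha, a nuclear receptor activated by fatty acids, which pairs with RXR and drives fat oxidation and ketone body synthesis in fasting.

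The RefSeq promoters of both genes are shown because the named genes are the subject of the windows and each gene start was compared with the peaks. Each is the 250 bases before the gene start on the + strand of GRCm38.p6, at chr6:71199629-71199878 for Fabp1 and chr3:122894822-122895071 for Fabp2. These positions belong to another build than the peaks and cannot be set against them. Capitals mark matches on either strand to 5 short motifs, written 5′ to 3′. AGGTCA is read by nuclear receptors, CAAAGTCCA by the liver and gut factor HNF4, GTTAAT by HNF1, TTTATGG by the intestinal factor CDX2 and AGATAA by zinc finger factors of the GATA family.
Fabp1: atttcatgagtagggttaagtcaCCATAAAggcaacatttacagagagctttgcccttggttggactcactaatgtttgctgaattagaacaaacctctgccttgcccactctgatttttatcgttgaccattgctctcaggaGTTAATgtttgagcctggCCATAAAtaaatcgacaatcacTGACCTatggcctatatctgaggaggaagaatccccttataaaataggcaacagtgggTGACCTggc
Fabp2: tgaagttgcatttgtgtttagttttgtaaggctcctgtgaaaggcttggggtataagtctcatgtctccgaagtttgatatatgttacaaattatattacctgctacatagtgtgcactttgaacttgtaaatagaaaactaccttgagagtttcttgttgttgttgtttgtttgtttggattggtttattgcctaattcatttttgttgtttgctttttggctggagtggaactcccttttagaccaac

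The Fabp1 promoter held AGGTCA on the opposite strand at 2 places, 67 to 62 and 9 to 4 bases before the start. It held TTTATGG on the opposite strand at 2 places, 227 to 221 and 89 to 83 bases before the start, and GTTAAT at 107 to 102 bases before it. None of the marked matches overlapped another. Of the 32851 promoters in the table, cut to the same 250 bases, 14.02% held AGGTCA, 2.43% held TTTATGG and 6.43% held GTTAAT. Neither promoter held CAAAGTCCA (0.384% of promoters) or AGATAA (9.99%), and the Fabp2 sequence held none of the 5 motifs. Both sequences were poor in G and C, with 42.8% in Fabp1 and 35.6% in Fabp2 against a median of 52.4% over all promoters.

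Whether each window holds the gene it is named after was checked first, because the gene table at hand is of GRCm38.p6. Gene starts within 10 Mb on either side of each window were moved along the chromosome in steps of 500 bp, up to 500 kb each way, and the share under a peak was counted at each shift. On chromosome 6 the mean share over the 4 libraries, for 132 starts, was 4.55% unshifted, 4.92% at the median shift and 29.2% at the best shift of -49.5 kb. On chromosome 3, for 207 starts, it was 5.68% unshifted, 3.99% at the median shift and 24.0% at the best shift of -297 kb. Best shifts of single libraries lay between -50.5 and -49.5 kb on chromosome 6 and between -297.5 and -296.5 kb on chromosome 3.

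**Figure D1:**
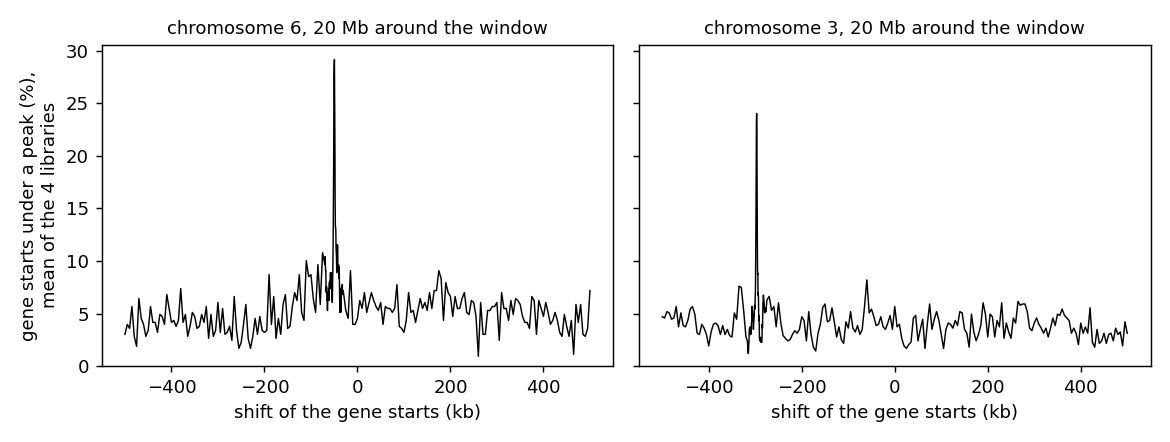
Share of gene starts under an H3K27ac peak (%, mean of the 4 libraries, y axis) against the shift between builds (kb, x axis), for 20 Mb around the chromosome 6 window (left) and the chromosome 3 window (right). A single narrow peak stands out in each, 29.2% at -49.5 kb and 24.0% at -297 kb.

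At these shifts Fabp1 started inside its window, and Fabp2 started outside its own, 61.9 kb below the lower edge. The chromosome 3 window thus goes against its label, and it is called by its position from here on. Its lone region held an end of Usp53, which encodes a protein of the ubiquitin-specific protease family and is the second gene after Fabp2 in the gene table, and an end of Myoz2 lay elsewhere in the window, under no peak. Usp53 and Myoz2 were named after these values were seen. The start of Fabp2 itself fell under a peak in all 4 libraries, and those peaks, 100 kb or less below the window, are described after the window. This held at each of the shifts from -297.5 to -296.5 kb. The start of Fabp1 fell under a peak of fasted 2 and fasted 5 at each shift from -50.5 to -49.5 kb, under a fed 1 peak at -50 and -49.5 kb but not at -50.5 kb, and under no fed 4 peak.

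In the Fabp1 window fed 1 had 6 peaks, fed 4 had 2, fasted 2 had 7 and fasted 5 had 5. The number of peaks did not separate the feeding states, since fed 1 had more than fasted 5. The peaks covered 8159 bp in fed 1 and 1767 bp in fed 4, and 18665 bp in fasted 2 and 21921 bp in fasted 5. Fasted 2 and fasted 5 lay above fed 1 and fed 4, and the fed libraries differed from each other more than the fasted ones did. The group means were 20293 ± 2302 bp fasted and 4963 ± 4520 bp fed (SD, n = 2 each), a ratio of 4.09. Across the genome 79.7% of windows of this length with any peak had the same order of the feeding states, so the order at Fabp1 is that of most windows.

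The size of the ratio was also set against other windows. Among 5506 windows of this length with a peak in every library, the median fasted-to-fed ratio of covered bases was 2.62, and the Fabp1 ratio of 4.09 stood at percentile 84.3. Without fed 4 the Fabp1 ratio was 2.49, at percentile 69.8 of the same windows (median 1.93), and without fed 1 it was 11.5, at percentile 92.7 (median 4.13). It was above the median in each case. In the pair whose deposited file names carry the number 10, fasted 2 covered 2.29 times the bases of fed 1, against 2.03 times over the whole lists. In the pair with the number 11, fasted 5 covered 12.4 times the bases of fed 4, against 4.98 times over the whole lists. The labels do not say what these numbers stand for, and each holds only 1 library per group. The ratio at Fabp1 was thus near that of the whole lists in the first pair and above it in the second.

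**Figure D2:**
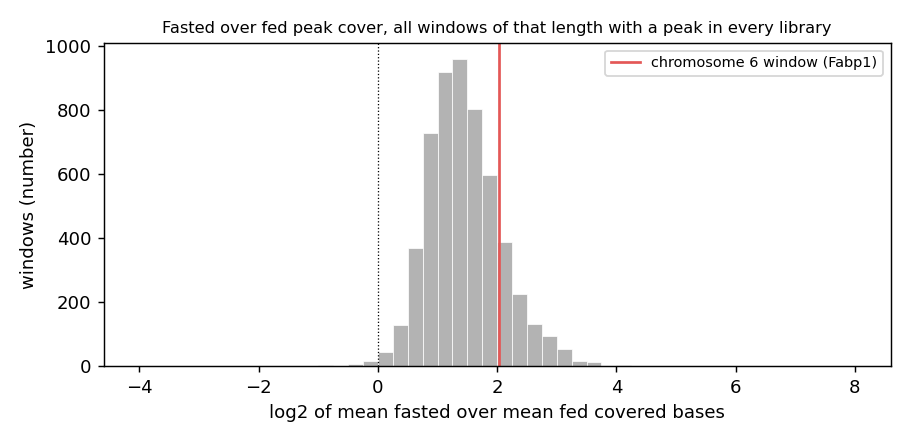
Number of windows of the length of the Fabp1 window with a peak in every library (y axis) by the log2 of mean fasted over mean fed covered bases (x axis). The red line marks the Fabp1 window, whose ratio of 4.09 lies above the median of 2.62 at percentile 84.3; the dotted line marks equal cover.

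Set against all windows of its length in the same library, with or without a peak, the Fabp1 window was among the more covered in every list. Covered bases were 8.02 times the mean of all 47889 windows in fed 1 and 3.86 times in fed 4, and 9.02 times in fasted 2 and 9.63 times in fasted 5. The window stood at percentile 95.9 in fed 1 and 92.6 in fed 4, and 96.9 in fasted 2 and 97.8 in fasted 5. Most windows hold no peak, and among windows with a peak in the same library the percentiles were 77.1, 41.9, 87.1 and 91.9 in the same order. In fed 4 the Fabp1 window thus held fewer covered bases than the median window with a peak, 1767 against 2170 bp.

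Merging the peaks of all libraries gave 6 regions in the Fabp1 window. The region over the Fabp1 start ran from 71144328 to 71154377, and fed 1, fasted 2 and fasted 5 had peaks in it, a pattern found at 14.8% of all 43091 merged regions. Fed 1 had 1 peak there, from 71149729 to 71152663 (2935 bp), with a score at percentile 92.6 of its list. Fasted 2 had 2 peaks with 8438 bp in all, the wider of them 6891 bp long at score percentile 93.6. Fasted 5 had a single peak over the whole 10050 bp, at score percentile 95.3. The 3 libraries therefore ranked this site alike by score within their lists, and the 2 fasted peaks over the start were wider. The median peak width of these 3 lists rose in the same order (1365, 1709 and 2077 bp). Ranked by width within its own list, the peak over the start stood at percentile 88.1 (fed 1), 94.0 (fasted 2) and 96.5 (fasted 5). Fasted peaks were thus wider at the median of the lists too, but the width rank of this peak also rose in that order. How many sites show such a rise in width rank was not counted.

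Fed 4 had no peak over the Fabp1 start, and its nearest peaks ended 10587 bp below and began 23092 bp above this region. Its list was the shortest, with peaks over 11.4% of the gene starts in the 20 Mb around the window at its best shift, against 25.8% in fed 1, 37.9% in fasted 2 and 44.7% in fasted 5. The fed libraries thus disagreed at the Fabp1 start itself. The part of list length in the missing fed 4 peak was not tested.

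A second broad region, upstream of the gene start, ran from 71128726 to 71140985 and was the only one of the window with peaks in all 4 libraries (16.1% of all regions). Its 12260 bp held 4 peaks with 4154 bp in fed 1 and 1 peak with 958 bp in fed 4, and 4 peaks with 9599 bp in fasted 2 and 3 peaks with 11442 bp in fasted 5. The best score stood at percentile 51.4 in fed 1 and 44.0 in fed 4, and 90.4 in fasted 2 and 86.0 in fasted 5. Here the fed peaks were of middling rank in their lists and the fasted ones of high rank. The share of all regions with this order of ranks was not counted. In the region over the start, by contrast, fed 1 ranked close to the fasted libraries, and fed 4 had no peak.

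The remaining 4 regions were smaller or lay at the edges. That from 71120663 to 71125428 had peaks in fed 1, fasted 2 and fasted 5, but only the fasted 5 peak reached into the window, by 429 bp. The peaks just outside, which the rule left out, were at score percentile 87.2 in fed 1 and 84.1 in fasted 2, against 70.2 for the fasted 5 peak just inside. Near the other edge, fed 4 had a peak of 809 bp just inside, at percentile 6.88, alone in its region (2.6% of all regions had a peak in fed 4 alone). A further region had a peak of 1070 bp in fed 1 alone, at percentile 50.1 (5.89% of all regions), and another a peak of 628 bp in fasted 2 alone, at percentile 6.14 (13.9% of all regions).

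**Figure D3:**
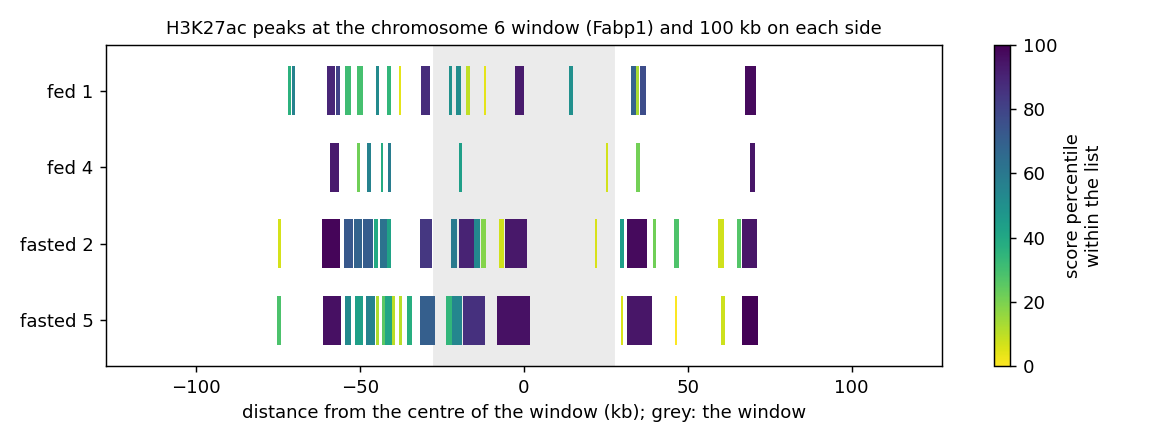
H3K27ac peaks of the 4 libraries (rows) by distance from the centre of the Fabp1 window (kb, x axis), with the window in grey and 100 kb on each side; colour is the score percentile within the list. The broad dark peaks near the centre are those over the Fabp1 start, present in fed 1, fasted 2 and fasted 5 and absent from the fed 4 row.

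Peaks of the Fabp1 window overlapped somewhat more closely in the fasted pair than over the whole lists, and less closely in every pair with a fed library. The Jaccard index (shared bases over all bases under a peak of either library) was 0.74 in the fasted pair in this window against 0.65 over the whole lists. It was 0.27 for fed 1 with fasted 2 and 0.30 for fed 1 with fasted 5, against 0.396 and 0.368 over the whole lists. The fed pair shared only 388 bp, an index of 0.041 against 0.254. For fed 4 it was 0.049 with fasted 2 and 0.03 with fasted 5, against 0.188 and 0.173.

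Peaks were also found on both sides of the Fabp1 window. The 100 kb below it, where Thnsl2, the gene before Fabp1 in the gene table, starts at the best shift, were covered over 14632 bp in fed 1 and 6746 bp in fed 4, and 22968 bp in fasted 2 and 25300 bp in fasted 5. As multiples of each library's mean these were 7.91 and 8.11 in the fed and 6.10 and 6.11 in the fasted libraries. The order of the feeding states against their own means was thus the reverse of that inside the window. How many windows show either order on this scale was not counted. Of 11 merged regions below the window, 4 had peaks in all 4 libraries, against 16.1% of all regions. Above the window the multiples were 4.06 and 3.29 fed and 4.54 and 3.68 fasted, and the groups overlapped.

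The chromosome 3 window held a single merged region, from 122685221 to 122689944. Fasted 2 had 1 peak over its whole 4724 bp, at score percentile 93.7, and fasted 5 had 1 peak of 4286 bp, at percentile 92.2. Neither fed library had a peak in the 70 kb window: the nearest fed 1 peaks were 58603 bp below and 66115 bp above this region, and those of fed 4 were 60150 and 74828 bp away. The 2 fasted peaks shared 4286 bp, the whole of the shorter one, a Jaccard index of 0.91.

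Peaks in both fasted libraries and in neither fed library were found at 19.3% of all merged regions and, counted by window, at 18.5% of windows of this length with any peak. The pattern itself is thus a common one in these lists, and the members of this window were chosen with it known. Fasted cover of the window was 1.79 times the library's mean in fasted 2 and 1.48 times in fasted 5. These stood at percentiles 85.0 and 81.8 of all windows, most of which hold no peak. Among windows with a peak in the same library the cover stood at percentiles 44.1 and 40.6, so against those windows it was not high. The score of the lone peak was high within each fasted list.

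**Figure D4:**
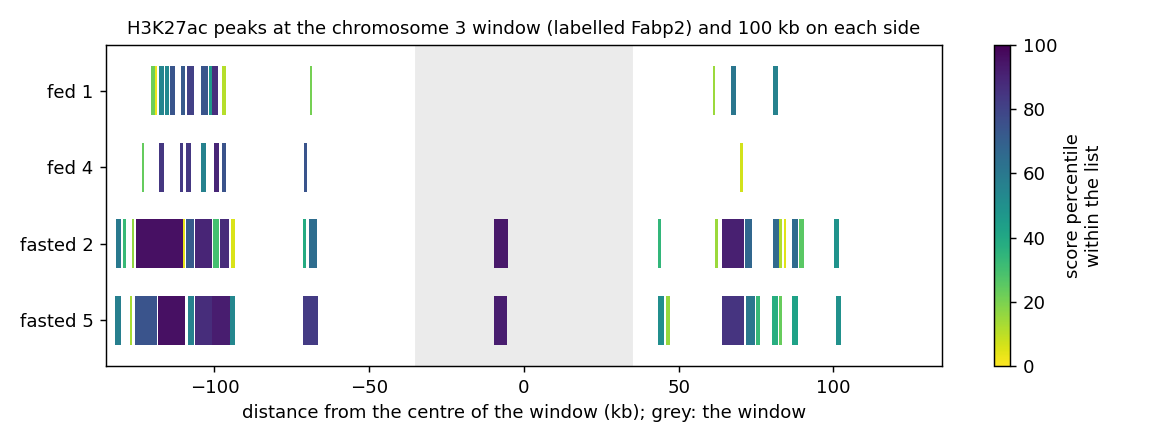
H3K27ac peaks of the 4 libraries (rows) by distance from the centre of the chromosome 3 window (kb, x axis), with the window in grey and 100 kb on each side; colour is the score percentile within the list. The window holds 1 peak in each fasted library and none in the fed ones, and the dense cluster at the left, present in all 4 rows, is where Fabp2 starts at the best shift.

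Peaks over the Fabp2 start were present in both feeding states. The peak over the start ran from 122597557 to 122598736 in fed 1 (1180 bp) and from 122597498 to 122598881 in fed 4 (1384 bp). It ran from 122596677 to 122599869 in fasted 2 (3193 bp) and from 122594339 to 122600120 in fasted 5 (5782 bp). By score they stood at percentile 11.1 in fed 1 and 74.4 in fed 4, and 87.7 in fasted 2 and 91.8 in fasted 5. Both fasted peaks were wider and ranked higher in their lists than both fed peaks, and fed 1 had the lowest rank. The fasted 5 peak ran over a stretch where fed 1, fed 4 and fasted 2 each had 2 peaks. Its width and score are thus not those of the start alone. Fasted peaks were also wider at the median of the whole lists. Width percentiles within the lists were 38.9 (fed 1), 63.1 (fed 4), 76.5 (fasted 2) and 88.5 (fasted 5). How many shared sites have these orders was not counted. At the Fabp1 start the fed libraries stood the other way round, with a peak at percentile 92.6 in fed 1 and none in fed 4.

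That peak belonged to a merged region from 122594309 to 122600120, with 2914 bp covered in fed 1 and 2895 bp in fed 4, and 5178 bp in fasted 2 and 5782 bp in fasted 5. Taken over the region, the highest score percentiles were 86.5, 89.1, 87.7 and 91.8 in the same order, so the fed and fasted libraries overlapped. The highest fed scores in this region lay on neighbouring peaks below the start and not on the peak over it. A wider region, from 122569485 to 122585614, held 8177 bp in 6 peaks in fed 1 and 3659 bp in 3 peaks in fed 4, against 16038 bp in 2 peaks in fasted 2 and 15939 bp in 2 peaks in fasted 5. Its highest score percentiles were 73.8 and 84.0 in the fed and 96.0 and 95.9 in the fasted libraries. The share of all regions with this order was not counted.

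Over the whole 100 kb below the chromosome 3 window, peaks covered 17269 bp in fed 1 and 10898 bp in fed 4, and 37918 bp in fasted 2 and 38776 bp in fasted 5. As multiples of the library's own mean these were 9.33, 13.1, 10.1 and 9.37. The fed and fasted libraries overlapped on this scale, and fed 4 was the highest. Of 9 merged regions there, 5 had peaks in all 4 libraries (16.1% of all regions), 3 in both fasted and neither fed library (19.3% of all regions) and 1 in fasted 2 alone (13.9%). Above the window the multiples were 2.06 and 1.33 in the fed and 5.31 and 5.07 in the fasted libraries. The share of all 100 kb windows with this order was not counted. Of 12 merged regions above the window, 5 had peaks in both fasted and neither fed library (19.3% of all regions) and 1 had peaks in all 4 (16.1%).

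**Figure D5:**
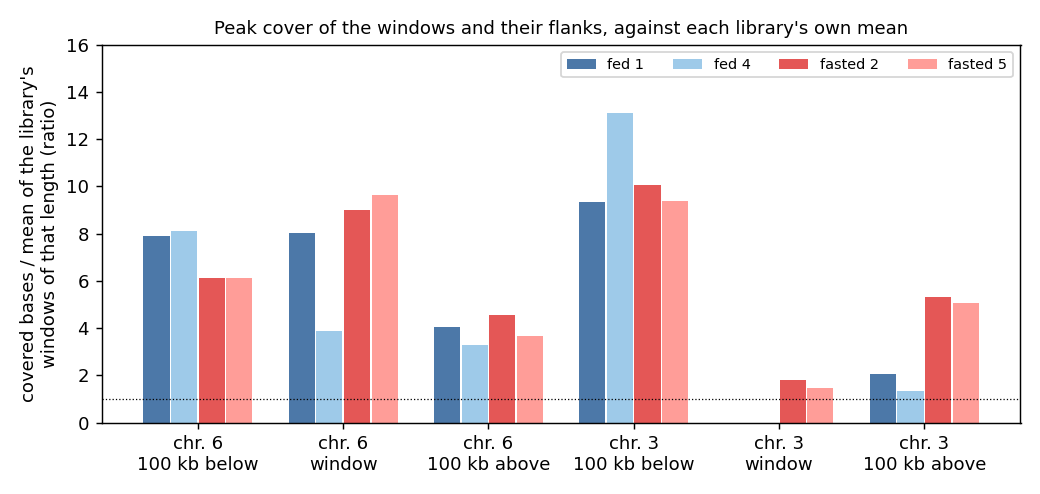
Covered bases as a multiple of the library's mean over all windows of the same length (y axis) for the 2 windows and the 100 kb on each side (x axis), 1 bar per library. The Fabp1 window is lowest in fed 4 (3.86), the stretch that holds the Fabp2 start is highest in fed 4 (13.1), and the chromosome 3 window has no fed bar; the dotted line marks a multiple of 1.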

How the data were processed

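The peak lists of the 4 H3K27ac libraries were used as deposited, 1 list per library; the 4 input libraries were not analysed here. Build mm9, the aligner Bowtie 1.1.2, deepTools 1.5.11, SAMtools 1.9 and FastQC are named per the submitters' processing notes. Names in the files point to MACS without a shifting model; neither its version nor its settings is given in the sources used here. Column 5 holds the score the authors deposited for each peak, of no stated scale, so it was used only as a percentile, the percentage of a list's peaks that score no higher. In fasted 5, 1282 peaks share a score of 3100.

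With Python 3.11.15 and NumPy 2.4.6, covered bases were counted as the union of peaks cut to a window. Windows of the same length were laid end to end over the autosomes and chromosome X, up to the last peak. Peaks overlapping by 1 bp or more were merged into regions. The functions were tested on simulated peaks. The members, the motifs and other lists were chosen with earlier results of these data known. All regions of the windows are named; other genes are named only as neighbours or for the check of the labels. Depth is unknown, so no interval is given. Comparisons of 2 against 2 libraries were not tested. Protein sequences of the family were not analysed here. The 100 kb flanks are reported in full because the label of the chromosome 3 window did not hold.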

Additional observations from a re-analysis of the deposited data

How the results depend on the processing

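Of 76 alternatives run, 55 stayed within the spread between replicates or within 1.5 times a count, 20 moved and 1 reversed. The fed libraries lay far apart in the Fabp1 window, so some differences that fell to 0 or near it there were still counted among the 55. No paired analysis was possible because the groups share no replicate number in the labels (1 and 4 fed, 2 and 5 fasted); ratios by the number in the file names stand in the report. In the Fabp1 window the fasted minus fed difference in covered bases was 15330 bp; it was 11265 bp with the 15504 best-scoring peaks of every list, 6120 bp at equal covered length (21.9 Mb), and 29661 and 39804 bp with the window extended by 20 and 100 kb. Leaving out each library in turn gave 12134 to 18526 bp; the ratio of 4.09 then ranged from 2.49 to 11.5, a step chosen after seeing the data. The difference in peak number, 2, was 6 and 7.5 in the extended windows and reversed to -0.5 at equal covered length. It was 0 with the 15504 best-scoring peaks of every list, 0 without fed 4 and 4 without fed 1. The difference in tiled percentile, 3.07 points, was 30.0 among windows with a peak only; at scores of 100 or 200 and more fed 4 had no peak in the window, so no difference is given. The difference in highest score percentile, 26.2 points, was 1.86 without fed 4 and 50.5 without fed 1. With scores of 100 or more, 3 regions remained, 1 of them with peaks in both fasted and neither fed library (6 and 0 as deposited). In the chromosome 3 window the difference of 4505 bp and 1 peak became 2362 bp and 0.5 peaks at equal covered length, where fasted 5 lost its peak, and 6642 bp and 2.5 peaks or 46790 bp and 9 peaks in the windows extended by 20 or 100 kb; it was 4286 to 4724 bp with each library left out. Its mean fasted percentile of 83.4 was 42.3 among windows with a peak, 86.5 at scores of 200 or more and 87.1 with equal peak numbers. At equal covered length no mean percentile is given.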

Other observations

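Joining the peaks of each library across gaps of up to 10 kb, a step added after the lists were seen, placed the Fabp1 start in a long acetylated domain in 3 of the 4 libraries. In each of them this domain also took in the start of Thnsl2 at the best shift, 30.1 kb below the window. The size of the domain is thus not that of Fabp1 alone. The domain spanned 72160 bp in fed 1, with 15 peaks covering 21721 bp, and ranked 349 of 9693 domains by covered bases. In fasted 2 it spanned 62582 bp, with 14 peaks covering 40104 bp, and ranked 340 of 12881. In fasted 5 it spanned 63283 bp, with 15 peaks covering 46022 bp, and ranked 204 of 15418. In fed 4 no domain reached the Fabp1 start; the domains that touched the window held 1 peak with 958 bp and 2 peaks with 1952 bp.

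A region with a peak in every library lay above the Fabp1 window, from 71218952 to 71223901 on chromosome 6, at the start of Krcc1 at the best shift. It had 1 peak in each library. Scores stood at percentile 97.5 in fed 1 and 94.2 in fed 4, and 94.3 in fasted 2 and 99.6 in fasted 5. The last was at the tied score, and 96.0% of the fasted 5 peaks scored below it. The fed and fasted libraries overlapped in rank there. Fed 4, without a peak over the Fabp1 start, had a peak of 1595 bp at this site. This site was singled out after its values were seen.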
